A study of Mus musculus with 12 samples.

Results

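Coenzyme Q (ubiquinone) biosynthesis was examined through 10 genes, which were taken by their name in the deposited count table of 43686 rows: Pdss1, Pdss2, Coq2, Coq3, Coq5, Coq6, Coq7, Coq8a, Coq9 and Coq10a. Each of the 10 names was found in 1 row, and all 10 passed the filter on low counts that left 17155 rows. Counts ran from 286 (Pdss1 in a WT heart) to 21025 (Coq8a in a WT heart) per member and library. Counting noise is larger, relative to the level, in members with fewer counts such as Pdss1. Its part in the spread between hearts was not tested. RNA came from the ventricular wall of 6 WT and 6 KO mice, 2 months old by the sample labels. The published text also gives an age in weeks for the RNA-seq hearts that is below this label. Its reporting summary names male mice for the omics work, at ages in weeks of which the oldest is near the label. The KO mice carried homozygous floxed Sdhaf4 alleles and the Ckmm-Cre transgene, which is driven by the muscle creatine kinase promoter and acts in heart and skeletal muscle. The WT mice were littermates with the same floxed alleles and no Cre. The labels describe the mutants as Sdhaf4-/- without naming the Cre, and the strain as C57BL/6. Cells of the heart that do not use this promoter keep the gene.

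Coenzyme Q is a lipid of the inner mitochondrial membrane that carries electrons from complex I, complex II (succinate dehydrogenase, SDH) and several smaller dehydrogenases to complex III. SDHAF4, the protein lost in these mice, helps to assemble SDH, which is one of the enzymes that hand electrons to coenzyme Q. The molecule has a long isoprenoid tail, made from products of the mevalonate pathway, and a benzoquinone head that is modified in several steps by a complex of COQ proteins on the matrix side of the membrane. The heart holds much of it because its energy comes mainly from respiration.

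The targeted gene fell in every KO heart. Sdhaf4 (MGP_C57BL6NJ_G0016278, chromosome 1, 22811495 to 22821212, minus strand of the C57BL/6NJ assembly) was at 25.2 ± 5.80 CPM (counts relative to library size, scaled by TMM, SD, n = 6) in WT and 2.40 ± 0.170 (SD, n = 6) in KO, a log2 fold change of -3.39. WT replicate 6 stood below the other WT hearts for this gene, at 14.3 CPM. Library totals were 23747014 to 27159228 counts in WT and 26542930 to 31393393 in KO. Nothing in the labels names litters or cages, and mice are the replicates. At an adjusted p of 0.05, 51.1% of the 17155 rows passed, 25.6% as higher and 25.5% as lower in KO, so that a call on 1 gene was common in these hearts.

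In the KO hearts 4 of the 10 genes fell, 1 rose and 5 did not pass the test. The genes that fell were Coq2, which joins the tail to the head, Coq3, a methyltransferase of the head, Coq8a, an atypical kinase that keeps the biosynthetic complex working, and Coq9, a lipid-binding partner of Coq7. The gene that rose was Pdss1, a subunit of the enzyme that builds the tail. These counts, 5 of 10 in all, stand beside a background of 51.1% of all rows in either direction, 25.5% lower and 25.6% higher. The median log2 fold change of the 10 genes was -0.10, against 0.0022 over all rows. Those 5 genes were also the ones without overlap between genotypes. Such a gap was present in 30.1% of all rows, with every KO library below in 15.2% and above in 14.9%. At an adjusted p of 0.005 with an absolute log2 fold change over 1, which 10.2% of all rows met, none of the 10 genes passed. In bulk RNA of a tissue, fewer cells of a type and less RNA per cell cannot be told apart.

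**Figure D1:**
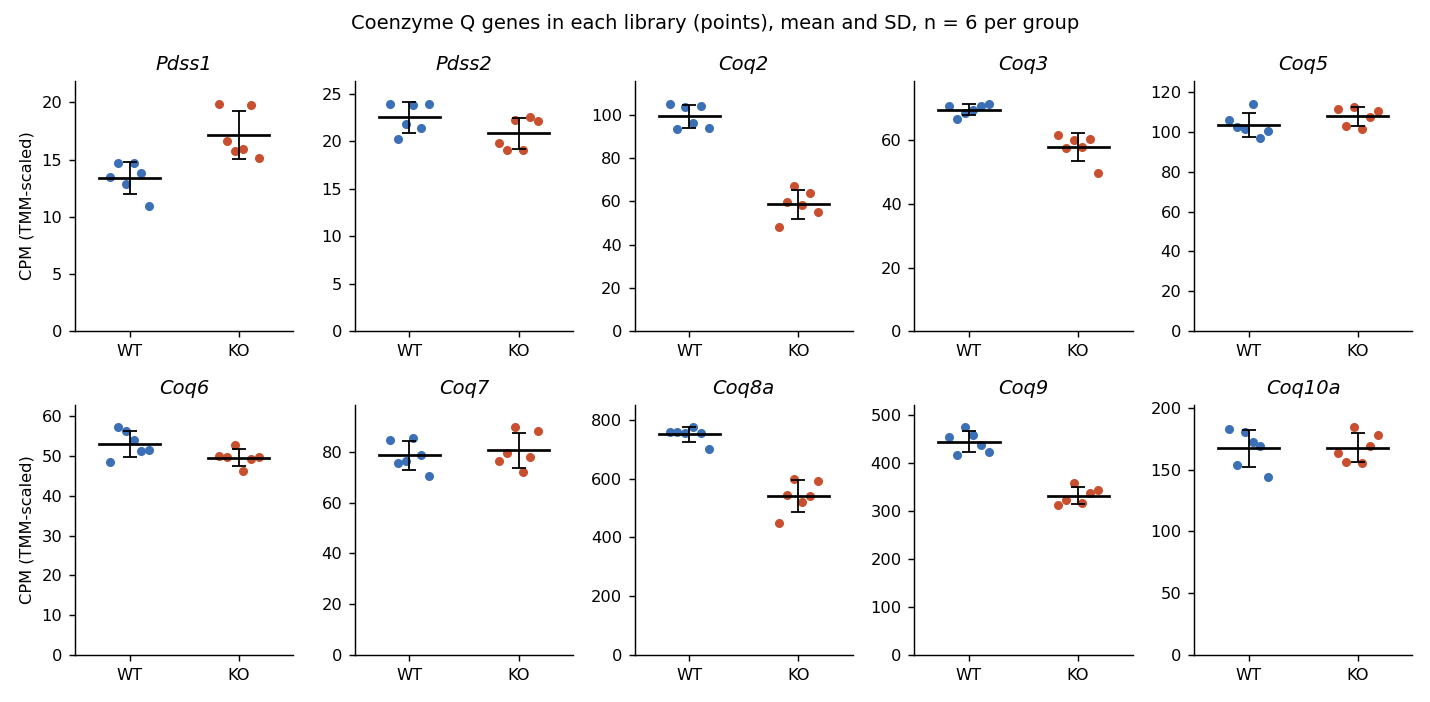
Each panel plots 1 gene in CPM (TMM-scaled, axis from 0) for the 6 WT and 6 KO libraries, with a point per library, the mean as a bar and the SD as whiskers. Coq2, Coq3, Coq8a and Coq9 have all KO points below all WT points, Pdss1 has them above, and the groups overlap in the other 5 panels.

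The first enzyme of the pathway makes the tail. Pdss1 and Pdss2 encode its subunits, a prenyl diphosphate synthase that sets the length of the tail. Pdss1 (MGP_C57BL6NJ_G0025810, chromosome 2, 21228739 to 21277392, plus strand) was at 10.9 CPM in the lowest, 13.6 in the median and 14.7 in the highest WT heart, and at 15.1, 16.3 and 19.9 CPM in the KO hearts. The ranges lay close together but did not overlap. On the log2 scale Pdss1 was higher by 0.36 in KO (standard error 0.093, adjusted p = 0.00385), or 28.1% higher in KO. The span of Pdss1 shares 194 bases with Abi1 on the other strand, which rose too (log2 fold change 0.41). Whether strand was used in counting is not given in the sources used here, and the part of shared reads was not tested.

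Pdss2 (MGP_C57BL6NJ_G0017590, chromosome 10, 43252490 to 43517987, plus strand) was at 22.5 ± 1.60 CPM in WT and 20.8 ± 1.64 in KO (SD, n = 6), a log2 fold change of -0.11 with a 95% interval of -0.26 to 0.034. The ratio of Pdss1 to Pdss2 within a library does not depend on library scaling. By FPKM (counts per length and library size, as deposited) it was 1.05 ± 0.159 in WT and 1.46 ± 0.207 in KO (SD, n = 6), with 4 of 6 KO libraries above all WT libraries. On the log2 scale of counts the ratio was higher by 0.47 in KO (two-sided exact permutation test, p = 0.00649, adjusted p = 0.00649 over the 4 ratios tested).

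Coq2 attaches the tail to the ring precursor, and it changed most among the 10 genes. Coq2 (MGP_C57BL6NJ_G0030220, chromosome 5, 106407780 to 106427307, minus strand) was at 93.3 CPM in the lowest, 99.9 in the median and 105 in the highest WT heart. In the KO hearts the same values were 48.4, 59.0 and 66.9 CPM. Every KO heart was well below every WT heart, with KO replicate 1 lowest and KO replicate 3 highest. On the log2 scale the change was -0.76 (standard error 0.068, adjusted p = 9.71e-08), a change of -41.0%, and 9.17% of all rows had a log2 fold change at or below it.

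For the genes at both ends of this range, Coq2 and Pdss1, the 250 bases before the RefSeq start are given on the coding strand (GRCm38.p6, another assembly than that of the count table, chr5:100674257-100674506 on the minus strand and chr2:22895272-22895521 on the plus strand). Capitals mark a match to a motif that was searched on both strands, and lower case is the rest.
Coq2: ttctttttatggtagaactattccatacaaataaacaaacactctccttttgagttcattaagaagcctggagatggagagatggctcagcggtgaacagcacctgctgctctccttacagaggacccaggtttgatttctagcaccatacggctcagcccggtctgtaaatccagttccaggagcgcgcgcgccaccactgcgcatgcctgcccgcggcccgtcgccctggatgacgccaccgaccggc
Pdss1: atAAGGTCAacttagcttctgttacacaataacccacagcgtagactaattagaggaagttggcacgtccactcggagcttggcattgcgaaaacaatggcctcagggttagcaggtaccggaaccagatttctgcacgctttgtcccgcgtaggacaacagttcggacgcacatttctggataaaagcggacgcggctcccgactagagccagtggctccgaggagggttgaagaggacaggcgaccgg
The motifs were AAGGTCA (a site of estrogen-related receptors), CCGGAAG (core of ETS factors), CACGTG (E-box), TGATGCAA (core of ATF4 sites), the NRF-1 consensus and the PPAR direct repeat, of which the last shares letters with the first. RefSeq windows were found for 9 of the 10 genes, 12 windows in all, and Coq5 is named only. AAGGTCA was found before Pdss1 and before 1 of the starts of Coq10a, and it occurs in 4.08% of all 32851 windows. CCGGAAG was found before Pdss2, against 6.91% of all windows. The other 4 motifs had no match in the 12 windows, and they occur in 3.74% (NRF-1), 6.02% (CACGTG), 0.0335% (PPAR direct repeat) and 0.791% (TGATGCAA) of all windows. The windows of Coq2, Coq3, Coq6, Coq7, Coq8a and Coq9 held none of the 6 motifs. Coq6 and Coq7 did not pass the test, so this absence is not particular to the genes that fell.

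The ring is then modified by Coq3, Coq5, Coq6 and Coq7. Coq3 (MGP_C57BL6NJ_G0028506, chromosome 4, 19668812 to 19709692, plus strand), which adds methyl groups to oxygen, was at 66.7, 70.3 and 71.5 CPM in the lowest, median and highest WT heart, and at 49.6, 59.1 and 61.8 CPM in the KO hearts. The groups did not overlap, and the gap between them was smaller than the range within KO. Its log2 fold change was -0.27 (standard error 0.052, adjusted p = 0.000426), a change of -16.8%.

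The other enzymes of the ring did not pass the test. Coq5, the methyltransferase that acts on carbon, was at 104 ± 6.01 CPM in WT and 108 ± 4.53 in KO (SD, n = 6), a log2 fold change of 0.057 with a 95% interval of -0.045 to 0.16. Coq6, a flavin-dependent monooxygenase, was at 53.1 ± 3.29 CPM in WT and 49.6 ± 2.09 in KO (SD, n = 6), a log2 fold change of -0.098 with a 95% interval of -0.21 to 0.0095. Its span shares 177 bases with Fam161b on the other strand, which fell (log2 fold change -0.65), and the part of shared reads was not tested. Coq6 passed when WT replicate 1 was left out (log2 fold change -0.13, adjusted p = 0.0433). Coq7, the hydroxylase of the penultimate step, was at 78.6 ± 5.81 CPM in WT and 80.7 ± 6.86 in KO (SD, n = 6), a log2 fold change of 0.038 with a 95% interval of -0.094 to 0.17. These intervals leave room for changes up to about their bounds, and a missed threshold does not show equal levels.

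Coq9 binds lipid and works together with Coq7, yet the genes did not move alike. Coq9 (MGP_C57BL6NJ_G0034467, chromosome 8, 99782948 to 99805846, plus strand) was at 417, 445 and 473 CPM in the lowest, median and highest WT heart, and at 311, 330 and 358 CPM in the KO hearts. All KO hearts were below all WT hearts. For Coq9 the log2 fold change was -0.42 (standard error 0.051, adjusted p = 3.31e-06), a change of -25.3%. Coq9 shares 38 bases with Ciapin1 on the other strand. The FPKM ratio of Coq7 to Coq9 was 0.0803 ± 0.00484 in WT and 0.110 ± 0.00514 in KO (SD, n = 6), and every KO library had a higher ratio than every WT library. The log2 ratio of counts was higher by 0.46 in KO (two-sided exact permutation test, p = 0.00216, adjusted p = 0.00289 over the 4 ratios), where 0.00216 is the smallest p that 6 against 6 libraries allow.

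Coq8a is an atypical kinase with ATPase activity that supports the COQ complex, and it is the form of the COQ8 pair that predominates in muscle. Coq8a (MGP_C57BL6NJ_G0017266, chromosome 1, 192603027 to 192638402, minus strand) was at 700.5, 758 and 775 CPM in the lowest, median and highest WT heart, and at 448, 544 and 599.5 CPM in the KO hearts. The KO hearts lay below the WT hearts without overlap and spread more widely, from KO replicate 1 to KO replicate 3. For Coq8a the log2 fold change was -0.47 (standard error 0.065, adjusted p = 1.21e-05), a change of -27.9%. The span shares 374 bases with Cdc42bpa on the other strand, which rose (log2 fold change 0.33).

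The paralog Coq8b (MGP_C57BL6NJ_G0032353, chromosome 7, 26710744 to 26737392, plus strand) was far lower and did not pass the test. It was at 7.89 ± 0.730 CPM in WT and 9.03 ± 1.23 in KO (SD, n = 6), a log2 fold change of 0.19 with a 95% interval of -0.029 to 0.42. By the deposited FPKM, whose lengths are not explained, Coq8a exceeded Coq8b 171-fold in WT (SD 18.4, n = 6) and 109-fold in KO (SD 22.3, n = 6), and with the length column of the table the ratio of the WT means was 66.2-fold. All 6 KO libraries had a lower ratio than the WT libraries, and the log2 ratio of counts fell by 0.66 (two-sided exact permutation test, p = 0.00216, adjusted p = 0.00289 over the 4 ratios).

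Coq10a encodes a lipid-binding protein with a START domain that is needed for coenzyme Q to work in the respiratory chain rather than for its synthesis. Coq10a (MGP_C57BL6NJ_G0018255, chromosome 10, 136571320 to 136578446, minus strand) was at 167 ± 15.2 CPM in WT and 168 ± 11.7 in KO (SD, n = 6), a log2 fold change of 0.0055 with a 95% interval of -0.13 to 0.14. Its paralog Coq10b (MGP_C57BL6NJ_G0016420, chromosome 1, 57031011 to 57050919, plus strand) rose in the same hearts. Coq10b was at 18.8, 24.5 and 27.8 CPM in the lowest, median and highest WT heart, and at 37.5, 39.3 and 43.2 CPM in the KO hearts, all above the WT hearts. On the log2 scale Coq10b was higher by 0.72 (standard error 0.080, adjusted p = 1.17e-06), or 64.6% higher. The FPKM ratio of Coq10a to Coq10b was 5.72 ± 1.12 in WT and 3.44 ± 0.377 in KO (SD, n = 6). The log2 ratio of counts fell by 0.72, with all 6 KO libraries below the WT libraries (two-sided exact permutation test, p = 0.00216, adjusted p = 0.00289 over the 4 ratios). Among single rows 30.1% had no overlap between the genotypes. How many other pairs of genes have a ratio without overlap was not determined, so whether such a gap is particular to these pairs is not known.

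**Figure D2:**
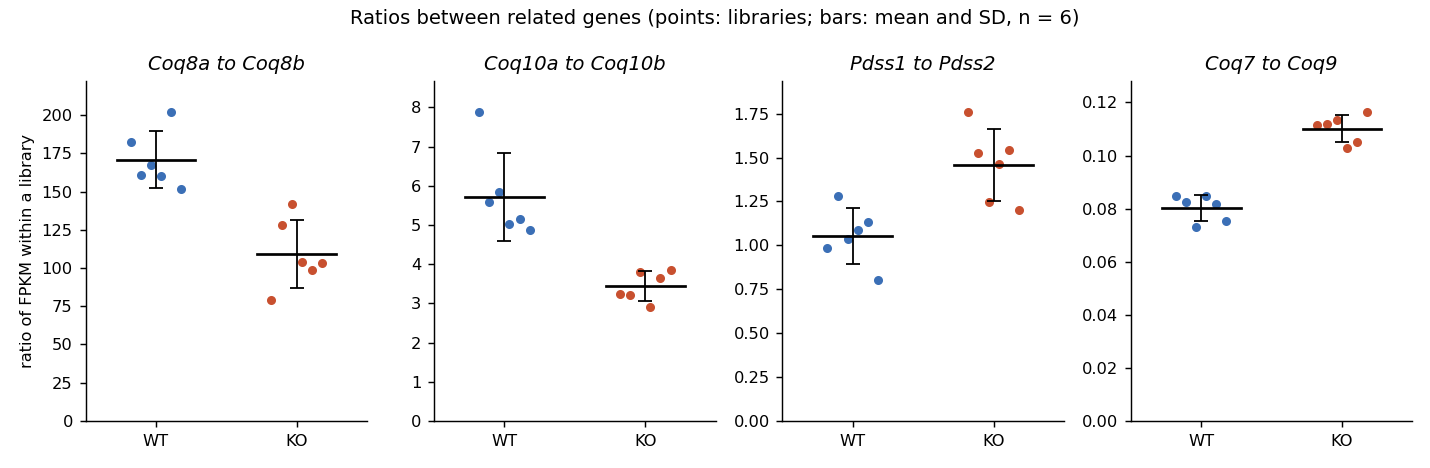
Each panel plots the ratio of the FPKM of a pair of genes within a library (axis from 0), with a point per library, the mean as a bar and the SD as whiskers, for 6 WT and 6 KO libraries. The ratios Coq8a to Coq8b and Coq10a to Coq10b are lower in every KO library, Coq7 to Coq9 is higher in every KO library, and Pdss1 to Pdss2 overlaps between the groups.

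**Figure D3:**
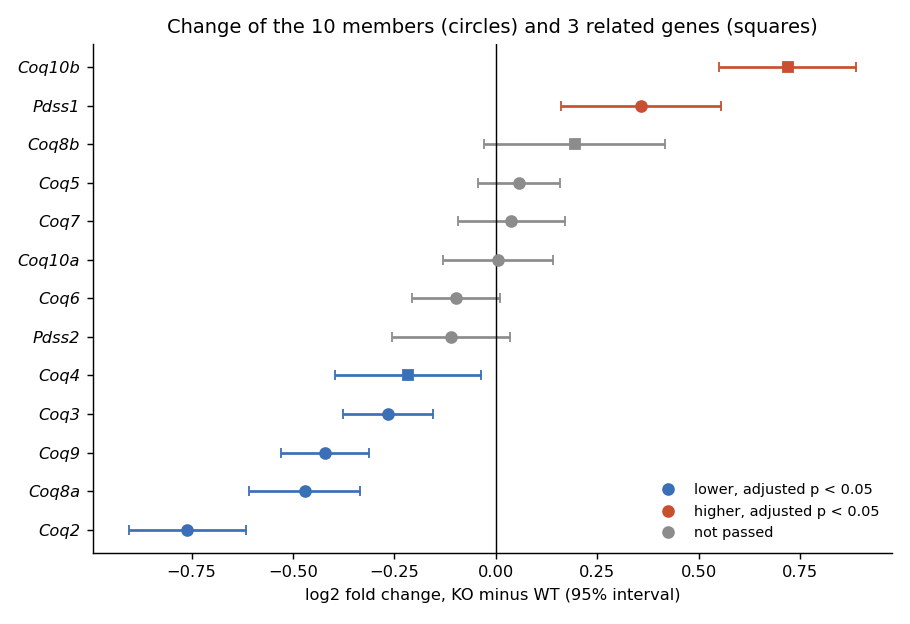
The log2 fold change (KO minus WT) of the 10 genes (circles) and of Coq4, Coq8b and Coq10b (squares) is plotted with its 95% interval. The values run from -0.76 for Coq2 to 0.72 for Coq10b, and blue and red mark an adjusted p under 0.05.

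By TMM-scaled CPM, KO replicate 3 was the highest KO library in 7 of the 10 genes. Among them were Coq2, Coq8a and Coq9, where it lay nearest to the WT hearts. Its TMM factor, 0.963, was the lowest of the 12 libraries, and the rank depends on this scaling. By library total alone, KO replicate 5 was above it for Coq2 (64.6 against 64.4 CPM). KO replicate 6 was then above it for Coq8a (577.7 against 576.8 CPM), and KO replicate 1 for Coq5 and Coq6. It stayed highest for Coq7, Coq9 and Coq10a. KO replicate 3 was also high in cardiomyocyte markers, with Myh6 at 18628 CPM (other KO hearts 12502 to 14603) and Ryr2 at 1691 CPM (other KO hearts 863 to 1039). The part of these markers in its values was not tested. Without it the log2 fold change was -0.81 for Coq2, -0.28 for Coq3, -0.51 for Coq8a, -0.45 for Coq9 and 0.38 for Pdss1. KO replicate 1 was the lowest KO library in 3 genes, Coq2, Coq8a and Coq9. With each of the 12 libraries left out in turn, these 5 genes kept an adjusted p under 0.05 in all 12 fits. The value ranged from -0.81 to -0.71 for Coq2, from -0.28 to -0.23 for Coq3, from -0.51 to -0.42 for Coq8a, from -0.45 to -0.40 for Coq9 and from 0.30 to 0.39 for Pdss1.

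Markers of cell types of the heart moved with genotype. Of 10 cardiomyocyte markers 9 were tested, of which 5 fell and 1 (Mybpc3) rose. Their summed level was 51334 to 56715 CPM in WT and 43774 to 60866 in KO. The sums overlapped only through KO replicate 3 (60866), since the other 5 KO hearts, at 43774 to 49592, were below every WT heart. All 8 fibroblast markers rose, and their sum went from 1420 to 1670 CPM in WT to 2584 to 4867 CPM in KO. Markers of lymphocytes summed to 1.61 to 3.65 CPM in WT and 1.16 to 2.96 in KO, and the adipocyte markers Adipoq, Plin1 and Cfd and the lymphocyte markers Cd3e and Ms4a1 were too low to be tested. None of the 4 lymphocyte markers tested passed, nor did the adipocyte marker Fabp4 (log2 fold change -0.076). Endothelial markers summed to 1399 to 1553 CPM in WT and 1485 to 1796 in KO, with 4 of 7 higher and 1 lower, macrophage markers to 218 to 302 and 223 to 305, with 1 of 7 higher and 2 lower, and mural markers to 1268 to 1491 and 1332 to 1779, with 2 of 6 higher and 1 lower. The erythroid markers tested, Hba-a1 and Alas2, did not pass, with log2 fold changes of 0.22 and 0.29. Their part in the change of the coenzyme Q genes was not tested.

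When libraries were scaled by the 9 cardiomyocyte markers in place of TMM, a scaling chosen after the data had been seen and that raised the median of all rows to 0.20 on the log2 scale, Coq2, Coq8a and Coq9 stayed lower (log2 fold change -0.57, -0.28 and -0.22) and Pdss1 higher (0.57). Coq3 was then at -0.062 and did not pass (adjusted p = 0.612), and Coq5 (0.26), Coq7 (0.23) and Coq10a (0.20) passed as higher. Under this scaling 6197 rows were higher and 2167 lower, against 4391 and 4376 under TMM.

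The levels of the 10 genes spanned a wide range, which is given as FPKM since counts of genes of different length cannot be compared. In WT the mean FPKM was 787 ± 20.4 for Coq8a and 564 ± 21.3 for Coq9 (SD, n = 6), and these genes together made up 76.9% of the summed mean FPKM of the 10 genes in WT and 72.8% in KO. With the length column the WT share was 62.7%. Coq10a (91.3), Coq2 (87.2) and Coq5 (76.0) formed a middle level of mean FPKM in WT, followed by Coq7 (45.3), Coq3 (42.5) and Coq6 (39.7). The subunits of the tail synthase, Pdss1 (12.8) and Pdss2 (12.2), were lowest, 64.5-fold below Coq8a for Pdss2 by FPKM and 33.8-fold by the length column. In that order the 6 WT values overlapped between Coq10a and Coq2, Coq7 and Coq3, Coq3 and Coq6, and Pdss1 and Pdss2, and did not overlap between the other neighbours. In KO Coq2, at 51.5 ± 5.39 FPKM (SD, n = 6), was below Coq5, at 79.1 ± 2.50, and Coq6, at 37.1 ± 0.970, was above Coq3, at 35.4 ± 3.10, with overlapping values for the latter pair.

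The order depends on the length used, both for Coq8a and Coq9 and for Coq7 and Coq3, which change places when the length column is used. The deposited FPKM of Coq8a corresponds to a length of 952 bases and that of Coq9 to 785 bases, whereas the length column of the table gives 4026 and 1789 bases. By FPKM Coq8a was 1.40-fold above Coq9 in WT, and by counts per length column it was at 0.752 of the level of Coq9. Changes between the genotypes are not touched by this, since the length behind the FPKM of a gene was the same in all 12 libraries.

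**Figure D4:**
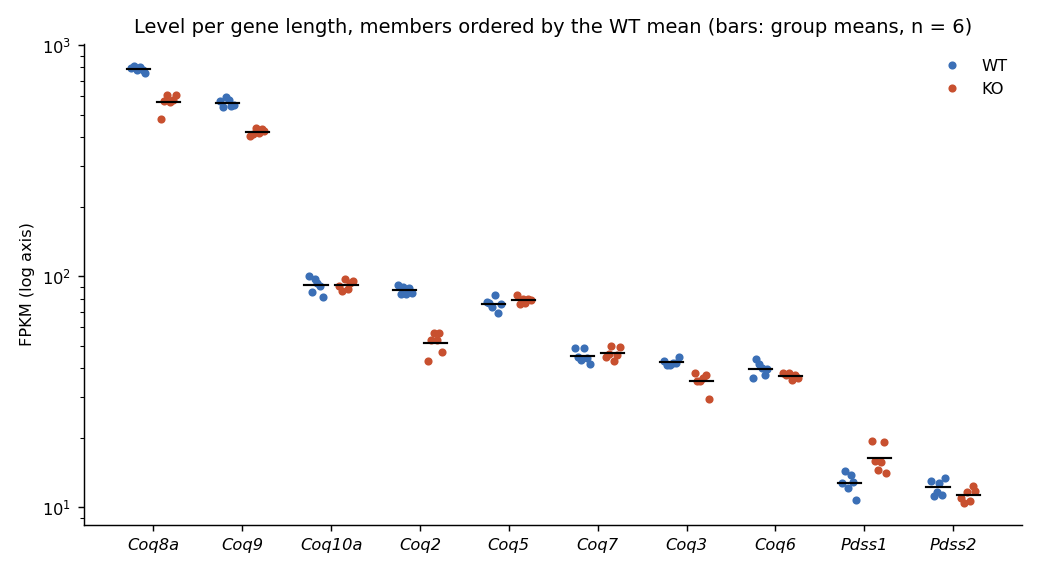
FPKM on a log axis is plotted for the 10 genes in order of their WT mean, with a point per library and a bar for each group mean (n = 6 WT and 6 KO). Coq8a and Coq9 stand apart at the top and Pdss1 and Pdss2 at the bottom, and the order of Coq2 and Coq5 differs between the groups.

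Among all rows tested, those whose log2 CPM over the 12 libraries was most like that of Coq2 were Nme4 (Pearson r = 0.993), Fh1 (0.990) and Ech1 (0.989), and those most like Coq9 were Mpc2 (0.991), Ndufs7 (0.991) and Mipep (0.989). Both were the genes with the smallest adjusted p, and all 6 rows fell in KO, by log2 fold changes from -2.51 (Nme4) to -0.41 (Mpc2). The 12 libraries form 2 genotypes, which alone gives a high r for pairs of rows that fell by much relative to their spread. After the mean of each genotype was removed, r with Coq2 was 0.919 for Nme4, 0.884 for Fh1 and 0.867 for Ech1. With Coq9 it was 0.907 for Mpc2, 0.919 for Ndufs7 and 0.876 for Mipep. The rows were picked by their r over the same 12 libraries, which already includes these deviations. A high r after the removal thus follows in part from that choice, and how many other rows reach it was not determined.

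Of 11 other genes of coenzyme Q biology, 3 rose, 2 fell and 6 did not pass, with a median log2 fold change of 0.19. These shares were near the 25.6% higher and 25.5% lower of all rows. Coq10b, Pptc7, a mitochondrial phosphatase (log2 fold change 0.59, adjusted p = 8.76e-07), and Fdx1l, the ferredoxin also called Fdx2 (0.47, adjusted p = 0.000706), rose. Adck2, a relative of Coq8a, fell, with 12.4 ± 1.17 CPM in the WT and 7.47 ± 0.460 CPM in the KO hearts (SD, n = 6), a log2 fold change of -0.73 (adjusted p = 2.15e-06). Coq4, which acts on the ring, was at 13.5 ± 1.45 CPM in WT and 11.6 ± 0.894 in KO (SD, n = 6), a log2 fold change of -0.22 (adjusted p = 0.0434) with overlapping groups. Its whole span lies within that of Golga2 on the same strand, it no longer passed in 8 of the 12 fits without 1 library, and its value is uncertain.

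The mevalonate pathway, which supplies the isoprenoid units, had 2 of 10 tested genes higher and 3 lower, with a median log2 fold change of -0.10. Of all rows 25.6% were higher and 25.5% lower, near these shares. The largest fall was that of Fdft1 (squalene synthase, at the branch toward cholesterol), with 53.4 ± 6.36 CPM in the WT and 18.1 ± 2.85 CPM in the KO hearts (SD, n = 6), a log2 fold change of -1.56 (adjusted p = 6.36e-09), and its span overlaps Ctsb. Pmvk and Mvk, kinases of mevalonate intermediates, had log2 fold changes of -0.75 and -0.43 (adjusted p = 8.75e-06 and 0.00525). Nus1, a subunit of the enzyme that makes dolichol precursors, rose (log2 fold change 0.56, adjusted p = 2.76e-06). Fdps, which makes farnesyl diphosphate, had 0 to 6 counts in the WT and 2 to 12 in the KO libraries, too few to be tested. Its span overlaps 2 other rows, and whether reads were lost in counting was not tested.

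Most of the enzymes that pass electrons to coenzyme Q fell. Of 13 tested genes 10 were lower and 1 higher, with a median log2 fold change of -0.43, beside 25.5% lower and 25.6% higher of all rows. Sqrdl, which oxidizes sulfide, fell from 45.5 ± 4.57 to 27.4 ± 1.53 CPM (log2 fold change -0.73, adjusted p = 1.46e-07). Etfdh, which takes electrons from fatty acid oxidation, fell from 828 ± 42.3 to 506 ± 65.0 CPM (log2 fold change -0.71, adjusted p = 5.11e-07), and Ndufs7, a complex I subunit near the quinone site, from 346 ± 17.4 to 251 ± 19.1 CPM (log2 fold change -0.46, adjusted p = 3.37e-06; SD, n = 6 for all 3). Nqo1, a cytosolic quinone reductase, rose from 36.7 ± 6.28 to 86.2 ± 19.2 CPM (SD, n = 6), a log2 fold change of 1.23 (adjusted p = 1.49e-05). The SDH subunits, singled out after their values were seen, had log2 fold changes of -0.46 (Sdha), -0.43 (Sdhb), -0.36 (Sdhc) and -0.055 (Sdhd, adjusted p = 0.402).

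Complex III takes electrons from coenzyme Q. Of its 15 subunits and assembly factors 13 were lower and 1 higher, with a median log2 fold change of -0.27. Scaling by cardiomyocyte markers left 6 lower and 2 higher. Lyrm7, an assembly factor for the iron-sulfur subunit, fell from 14.4 ± 0.548 to 7.78 ± 0.736 CPM (SD, n = 6), a log2 fold change of -0.88 (adjusted p = 9.46e-08). Uqcrc1 and Uqcr11, subunits of the complex, had log2 fold changes of -0.52 and -0.63, and Uqcc1, an assembly factor, rose (0.17, adjusted p = 0.0146). The shares lower were 4 of 10 for the coenzyme Q genes, 10 of 13 for the enzymes that reduce it and 13 of 15 for complex III, beside 25.5% of all rows. The difference between these lists was not tested.

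**Figure D5:**
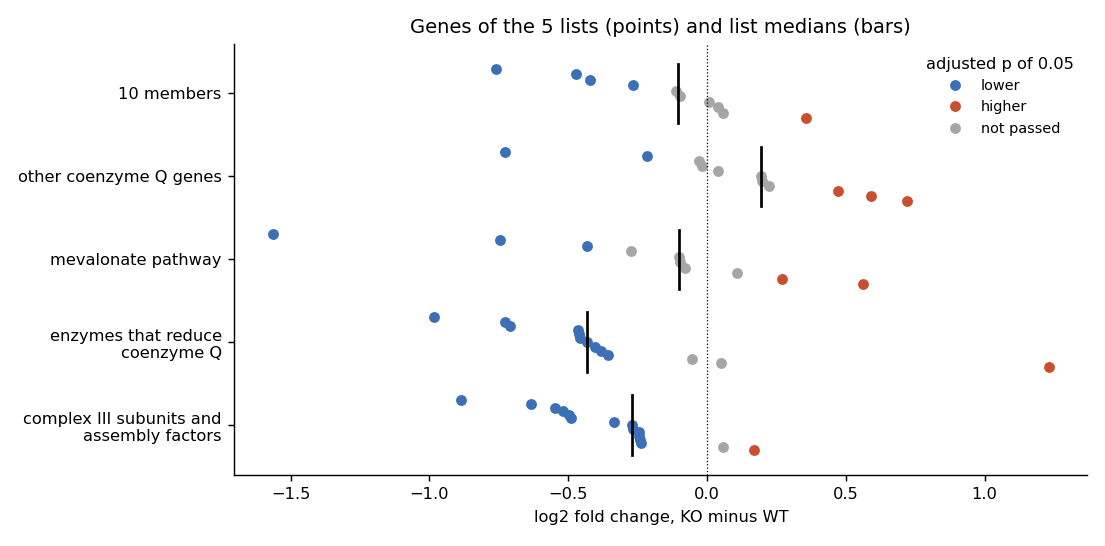
The log2 fold change (KO minus WT) of each tested gene is plotted for the 10 coenzyme Q genes and 4 other lists, with a bar at each list's median. The medians are -0.10, 0.19, -0.10, -0.43 and -0.27 from top to bottom, and blue and red mark genes that passed at an adjusted p of 0.05.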

How the data were processed

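Ventricular wall RNA of 6 WT and 6 KO mice was purified on poly-T beads, sequenced, aligned (HISAT2 2.0.5 and mm10 per the labels' processing notes) and counted per gene with HTSeq by the authors, who deposited raw counts and FPKM per library. Gene identifiers follow the C57BL/6NJ assembly, whose coordinates are given. The strand setting and the length behind the FPKM are not given in the sources used here. Group means, log2 fold changes and p-values (authors' group means of FPKM and of scaled counts, a signal, and their DESeq comparison) were deposited by the authors and not used.

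The tests used edgeR 4.0.16 in R 4.3.3 (filterByExpr, TMM, robust quasi-likelihood test, Benjamini-Hochberg adjustment over all 17155 rows, threshold 0.05), and every adjusted p in the text comes from this fit unless another is named. Standard errors and 95% intervals were derived from each fold change with its F statistic. The 4 ratios of genes within a library (0.5 added to each count) were compared by two-sided exact permutation tests. Genes named are the 10 members, Sdhaf4, Coq4, Coq8b, Coq10b, and from each list the 3 called in each direction with the smallest p, of which 1 is not reported here. The members and lists were chosen with earlier results of these data known. Older symbols were matched for Fdx2 (Fdx1l) and Sqor (Sqrdl), and Acat2, Actn2, Lyz2, Hbb-bs and Hbb-bt were not analysed here. Alternatives used edgeR with other scalings and filters, DESeq2 1.42.0, limma 3.58.1 (voom, and log2 of FPKM plus 1 or 0.1) and a replicate block. Scaling by cardiomyocyte markers, leaving out unannotated loci and the other gene length were chosen after seeing the data. The fit was tested on simulated counts for 16983 genes, where 200 of 200 changed genes were recovered with 9 false calls. The changes put in had an absolute log2 fold change of at least 1, larger than that of any of the 10 genes. They were put in well-counted genes only, and most genes were left unchanged. Recovery of changes as small as those of the 10 genes was therefore not tested. Between libraries of 1 genotype, the chi-square divided by its degrees of freedom was 7.32 or more, and none was merged. Intervals and errors between libraries include counting error. Promoter windows are RefSeq's, GRCm38.p6.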

Additional observations from a re-analysis of the deposited data

Results flagged for a closer look

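In 3 of 28 groups of 6 values examined (the 10 members, Coq4, Coq8b, Coq10b and Sdhaf4 in each genotype), 1 library lay far from the others by Dixon's test, where chance gives about 1.4. Coq3 was at 49.6 CPM in KO replicate 6 (other KO hearts 57.7 to 61.8), and without that heart its log2 fold change was -0.23 (adjusted p = 0.000308 from edgeR). Coq8a was at 700.5 CPM in WT replicate 6 (other WT hearts 754 to 775), and without it the log2 fold change was -0.49. Sdhaf4 was at 2.73 CPM in KO replicate 1 (other KO hearts 2.25 to 2.41).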

How the results depend on the processing

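Coq2, Coq8a and Coq9 stayed lower and Pdss1 higher with an adjusted p under 0.05 under all 13 other fits and in all 12 fits without 1 library, and Coq3 in all of these but the scaling by cardiomyocyte markers. The alternatives gave log2 fold changes from -0.77 to -0.57 for Coq2, -0.48 to -0.28 for Coq8a, -0.43 to -0.22 for Coq9 and 0.33 to 0.57 for Pdss1. An adjusted p of 0.005 with an absolute log2 fold change over 1 was met by 10.2% of all rows. Under it 0 of the 10 genes were higher and 0 lower. For the other coenzyme Q genes 0 were higher and 0 lower, and for the mevalonate genes 0 were higher and 1 lower. Among the enzymes that reduce coenzyme Q 1 was higher (Nqo1) and 0 were lower. For complex III 0 genes were higher and 0 lower. Scaling by cardiomyocyte markers gave 4 of the 10 genes higher, 6 other coenzyme Q genes higher and 1 lower, and 2 complex III genes higher and 6 lower. It reversed the sign of Pdss2 (0.087) and Coq6 (0.099). Coq10a, near 0 under TMM, was at -0.0042 with upper quartile scaling, at -0.0037 without unannotated loci, and between -0.035 and 0.028 with 1 library left out. The cause of these shifts was not tested. The other coenzyme Q genes lower were 1 without a filter on low counts, 1 with limma on log2 of FPKM plus 1 and no filter, and 1 with the replicate block, in each case through Coq4. With 1 library left out they were 1 to 2, and the mevalonate genes higher were 1 to 2. The log2 level of Coq8a over Coq9 per length was 0.48 by FPKM and -0.41 by the length column. Same-numbered WT and KO libraries did not deviate together (correlations from -0.16 to 0.024, and 1 of 12 libraries correlated best with its own number). The replicate block changed no call among the 10 genes (Coq2 -0.77, Coq3 -0.27, Coq8a -0.48, Coq9 -0.42, Pdss1 0.36), and the 4 ratios paired by number each gave p = 0.0312 (exact sign flips), the smallest p that 6 pairs allow. It moved the count of all rows higher from 4391 to 4123 and lower from 4376 to 4110.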
